A study of Homo sapiens with 10 samples.

Results

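The 10 genes described here form the switch that takes a cell from G1 into S phase: the kinases CDK4 and CDK6, the D-type cyclins CCND2 and CCND3, the inhibitors CDKN1B, CDKN2C and CDKN2D, the retinoblastoma gene RB1, and the transcription factors E2F1 and E2F2. They were taken by symbol from the 55889 Ensembl gene IDs of each file, and each symbol matched 1 ID. The cells were KOPT-K1, an established human line of T-cell acute lymphoblastic leukaemia (T-ALL), grown in RPMI with 20% FBS. They were treated for 45 minutes with the vehicle DMSO or with 25 nM silvestrol, a plant-derived rocaglate that acts on eIF4A, the RNA helicase that opens mRNA leaders for scanning ribosomes. Ribosome-protected RNA fragments (footprints) came from 2 libraries per treatment and total RNA from 3 libraries per treatment, 10 libraries in all. The labels do not say whether the replicates were separate cultures, so p-values here speak only to library-to-library spread, part or all of it possibly technical.

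In G1, a D-type cyclin binds CDK4 or CDK6, and the active kinase phosphorylates the RB1 protein. RB1 otherwise holds E2F factors inactive, and its phosphorylation frees them to switch on genes of DNA replication. Proteins of the INK4 family, among them those of CDKN2C and CDKN2D, bind CDK4 and CDK6 and keep the cyclin out, while p27, the product of CDKN1B, acts mainly on CDK2 complexes. In the T lineage CDK6 and CCND3 are the best known of these genes, and both serve the expansion of immature thymocytes and of T-ALL cells.

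The title of the series concerns RNA G-quadruplexes, structures that guanine-rich RNA can fold into, so the 5' leaders of the 10 mRNAs were searched for 2 patterns. The first was a run of 4 GGC or 4 CGG triplets, 12 bases, and the second was 4 runs of at least 3 G with 1 to 7 bases between runs; the patterns can overlap. Both were searched on the mRNA strand, in 1 coding transcript per gene from GENCODE release 29. CDK6 was the only member with the triplet repeat, which 4.73% of 8816 tested coding genes held. CCND3, CDKN2C and CDKN2D held the second pattern, against 10.9% of the same genes. The windows below are given 5' to 3' with the matched bases in capitals, and they show how the CDK6 repeat differs from the G-runs of the other leaders.
CDK6 repeat: ctcctcCGGCGGCGGCGGCGGCGGcgactc
CCND3 G-runs: cgcgcGGGCGGCGGGCGGGCTGGGGatccg
CDKN2D G-runs nearest the start codon: cgccGGGCTGGGGCGGGGCGGGGGGctttg
CDKN2C first G-runs: agcGGGAGGCGGGAATGAGGGCGCGGGacc

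The CDK6 window lies at chr7:92833561-92833590 (GRCh38, minus strand), in its leader, and its 18 repeat bases begin at position -261 from the start codon. The CCND3 window is at chr6:41941760-41941789 on the minus strand, with its pattern beginning at position -135, and the CDKN2D window is at chr19:10568672-10568701 on the minus strand, beginning at position -44. The CDKN2C window is at chr1:50968567-50968596 on the plus strand, in a leader of 2034 nt that carries 13 ATG triplets. The CDK6 leader was 412 nt long, longer than in 81.5% of the tested coding genes, and its GC content was 69.7% against a median of 66.0%. Leaders of the other members ran from 140 nt in E2F1 to 716 nt in CDKN1B, leaving out CDKN2C. These are annotated leaders, and which transcripts these cells used was not measured here. A match is a description of the letters and not of a folded structure.

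Values are RPKM, reads scaled to the length of the gene and to the size of the library. By a rough estimate from the smallest steps in the values, the footprint libraries held 1.66 to 2.38 M reads and the RNA libraries 127 to 216 M. Replicates of the median gene differed with an SD (log2) of 0.18 in DMSO footprints and 0.19 in silvestrol footprints, and of 0.04 and 0.05 in RNA. A gene was tested where its mean was at least 1 RPKM in RNA and in footprints, which 10297 genes and 9 of the 10 members passed. Of 15 T-cell leukaemia markers, 13 had a DMSO RNA mean of 1 RPKM or more, with CD3D at 675 RPKM. Of 15 markers of B, myeloid, erythroid and stromal cells, 13 were under 1 RPKM, and MS4A1, PAX5 and HBA1 were at 0 in every library. Their summed RNA level ran from 39.8 to 41.6 RPKM in DMSO and from 37.8 to 39.8 RPKM in silvestrol, and their summed footprints from 51.7 to 54.3 and from 42.2 to 46.0 RPKM. Nearly all of it was CD79A (32.0 RPKM of RNA in DMSO) and CD79B (8.62 RPKM), and its part in the results was not tested.

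CCND3 was by far the most abundant D-type cyclin and CCND2 was close to 0. In the DMSO RNA libraries CCND3 measured 137, 141 and 135 RPKM and CCND2 measured 0.179, 0.173 and 0.197 RPKM. CCND1, the third D-type cyclin, had a DMSO RNA mean of 0.0528 RPKM. Of the summed RPKM of the 3 D-type cyclins, CCND3 made up 99.7% to 99.9% in each of the 10 libraries. CCND2 footprints were 0.185 and 0.168 RPKM in DMSO and 0.118 and 0.206 RPKM in silvestrol, an estimated 2.0 to 3.0 reads per library. No change of CCND2 could be read at that depth, and it was the member that did not reach the minimum.

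In order of DMSO RNA level, CCND3 (138 ± 3.1 RPKM, SD, n = 3) was followed by CDK4 (102 in each library), CDK6 (67.9 ± 4.5), E2F1 (66.9 ± 2.4), RB1 (42.1 ± 1.5), CDKN2D (32.7 ± 1.1), E2F2 (29.5 ± 0.40), CDKN2C (19.2 ± 0.46) and CDKN1B (6.59 ± 0.40). CDK6 and E2F1 overlapped, and every other pair of neighbours was separate in all 3 libraries. The order of DMSO footprints was the same down to CDK6 and then differed. RB1 followed CDK6 at 45.8 ± 0.21 RPKM (SD, n = 2) and CDKN2D followed RB1 at 28.1 ± 3.5, while E2F1 (18.9 ± 5.2), E2F2 (18.9 ± 0.57) and CDKN2C (16.2 ± 3.3) overlapped. All these orders are on the deposited scale.

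**Figure D1:**
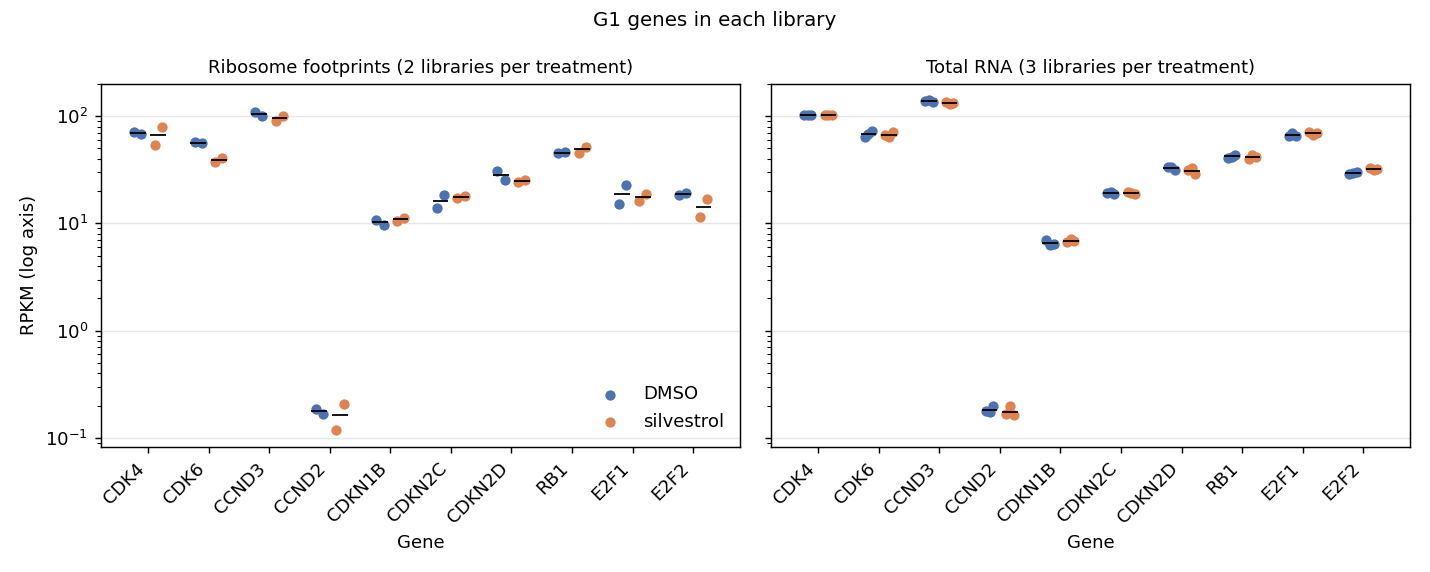
RPKM of the 10 genes in each library on a log axis, with footprints on the left and total RNA on the right. Points are libraries (2 per treatment for footprints, 3 for RNA), blue for DMSO and orange for silvestrol, and black bars are group means; CCND2 lies below 0.3 RPKM in every library, and the CDK6 and E2F2 footprint points of silvestrol lie below those of DMSO.

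The ratio of footprint to RNA level in DMSO describes ribosome coverage relative to RNA, with both scaled to the length of the gene. It is not a number of ribosomes per mRNA copy. E2F1 stood lowest among the members, at 0.282 ± 0.078 (SD over 2 footprint libraries, each divided by the RNA mean), and 6.69% of 8928 tested coding genes were lower. CDKN1B stood highest at 1.55 ± 0.13, above 94.0% of coding genes, followed by RB1 at 1.09 ± 0.0050. CDK6 (0.835 ± 0.021), CDKN2D (0.857 ± 0.11), CDKN2C (0.841 ± 0.17), CCND3 (0.759 ± 0.046), CDK4 (0.680 ± 0.017) and E2F2 (0.641 ± 0.019) lay around the median of 0.723.

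Ribosomes cover the coding part of an mRNA, so the length used in RPKM bears on these ratios and on footprint levels compared between genes. In coding genes with 1 annotated transcript, 71.1% to 77.3% of low footprint values came to whole reads (within 0.05) with the exon length and 7.63% to 12.97% with the coding length. Footprints of those genes were thus mostly scaled to exon length, which lowers the values of genes with long untranslated regions. The members were not checked one by one. CDK6 stood out in length, with 978 coding bases in 12260 exonic bases and a 3' untranslated region longer than in 99.1% of tested coding genes. When footprints were rescaled by exon length over coding length, CDK6 became the highest member at 10.5, above 95.1% of coding genes, and E2F1 remained the lowest at 0.539, with 3.11% of coding genes below it. The median of coding genes after rescaling was 2.44. CDK4 (2.37), RB1 (2.52), CDKN2D (2.59) and E2F2 (2.67) lay near it, and CCND3 (5.03), CDKN2C (5.54) and CDKN1B (7.34) above it. The rescaling takes the lengths from GENCODE release 29, which may differ from those behind the deposited values. Its exon length joins the exons of all annotated transcripts of a gene. Where the transcript in use is shorter, the rescaled ratio comes out too high. For CCND3 this length was 5802 bases, while the transcript searched above had a leader of 199 bases, 876 coding bases and 1010 bases after them. The rescaled order of the members thus depends on the length used.

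**Figure D2:**
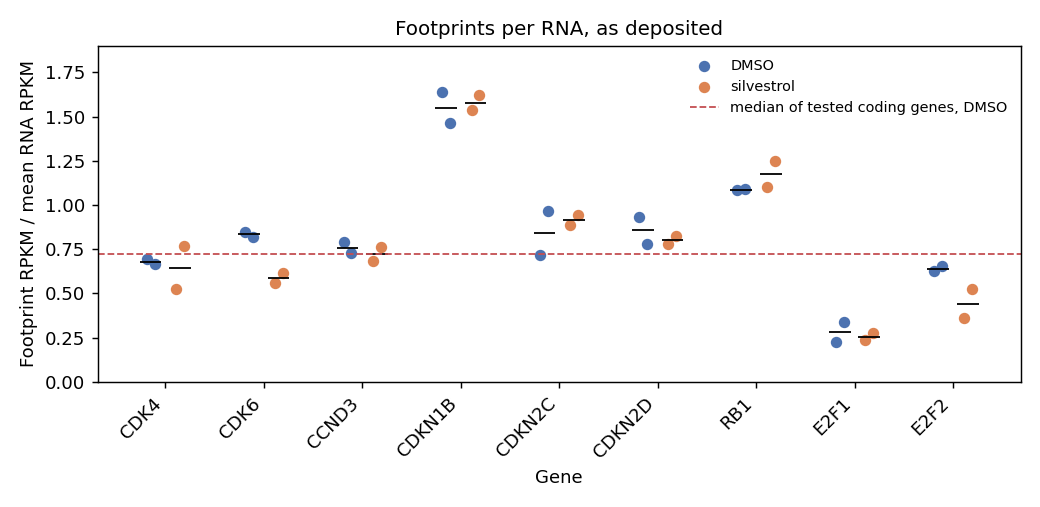
Footprint RPKM of each library divided by the mean RNA RPKM of its treatment, for the 9 tested genes, as deposited and without rescaling. Each treatment has 2 points, black bars are means, and the dashed line is the DMSO median of tested coding genes (0.723); E2F1 is lowest, CDKN1B highest, and the silvestrol points of CDK6 and E2F2 lie below their DMSO points.

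The treatment comparison asked whether silvestrol changed the RNA, the footprints or the translational efficiency (footprints relative to RNA) of these genes. No member was called in any of the 3 comparisons at an adjusted p under 0.05 (limma on log2(RPKM + 0.5), Benjamini-Hochberg over 10297 genes). The share of all tested genes called was 0.107% in translational efficiency, 0.0486% in footprints and 0.282% in RNA. In simulated data most changes of the smallest simulated size, and many 2-fold changes, were missed in translational efficiency and footprints. A missing call therefore does not exclude a change. At an unadjusted p under 0.05 there was 1 of 9 members in each comparison, E2F2 in translational efficiency, CDK6 in footprints and E2F2 in RNA, where 7.38%, 6.98% and 9.23% of all tested genes stood. The median log2 change of the 9 members was -0.08 in translational efficiency, -0.09 in footprints and 0.0049 in RNA, against -0.08, -0.07 and 0.0028 for all tested genes. RPKM is relative to each library's total, so a loss of translation shared by all genes would not appear in these values.

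CDK6, a kinase partner of the D-type cyclins, had the lowest footprint value of the members relative to DMSO. Its footprints were 57.7 and 55.7 RPKM in DMSO and 37.5 and 41.1 RPKM in silvestrol. Both silvestrol libraries were below both DMSO libraries, a footprint pattern shown by 3 of 9 members (CDK6, CDKN2D and E2F2) and by 25.2% of all tested genes; 0 of 9 were separate and higher, against 13.1%. CDK6 RNA was 63.3, 68.2 and 72.3 RPKM in DMSO and 66.2, 63.4 and 71.2 RPKM in silvestrol, so the RNA groups overlapped. The log2 change of CDK6 footprints was -0.52 (95% interval -0.84 to -0.21, a fold of 0.695), with a limma p of 0.0067 before and 0.600 after adjustment, and 10.5% of tested genes had a lower value. An estimated 1024 to 1606 footprint reads per library lay behind it.

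The translational efficiency of CDK6 had a log2 change of -0.50 (95% interval -1.31 to 0.30, adjusted p = 0.831), and 12.1% of tested genes had a lower value. The width of this interval depends on how the spread is shared between the assays. With 1 spread for footprints and RNA the SE was 0.10 in place of 0.36 and CDK6 was called (adjusted p = 0.0347), as were 5.29% of all tested genes (3.99% lower). That fit assumes that footprints and RNA vary alike, although the median SD differed between them as given above. In simulated data with nothing changed it called 47 of 10052 genes, against 11 with the fit reported first. With 200 genes changed, it falsely called 185 others, against 30. With the spread of each assay estimated alone, an alternative chosen after the data were seen, the interval was -0.83 to -0.18 and the adjusted p 0.548. Over all alternatives run the CDK6 value lay between -0.57 and -0.42, with adjusted p from 0.0347 to 0.999.

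Ratios of 2 genes within a library do not depend on how the library was scaled. CDK6 footprints over CCND3 footprints were 0.529 and 0.557 in DMSO and 0.413 and 0.407 in silvestrol. Over RB1 they were 1.27 and 1.21 in DMSO and 0.819 and 0.790 in silvestrol. Over CDK4 they were 0.817 and 0.818 in DMSO and 0.697 and 0.522 in silvestrol. The CDK6 ratio was lower in both silvestrol libraries against 7 of the 8 other tested members, the exception being E2F2, and in RNA it was lower in all silvestrol libraries against 0 of the 8. These pairs share the CDK6 values and are not separate observations. CDK6 had the lowest footprint change of the members, so lower ratios to most of them follow from that value. No share over all tested genes was computed for such ratios. With 2 libraries against 2, an exact permutation test cannot give a p below 0.333, so none was run.

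**Figure D3:**
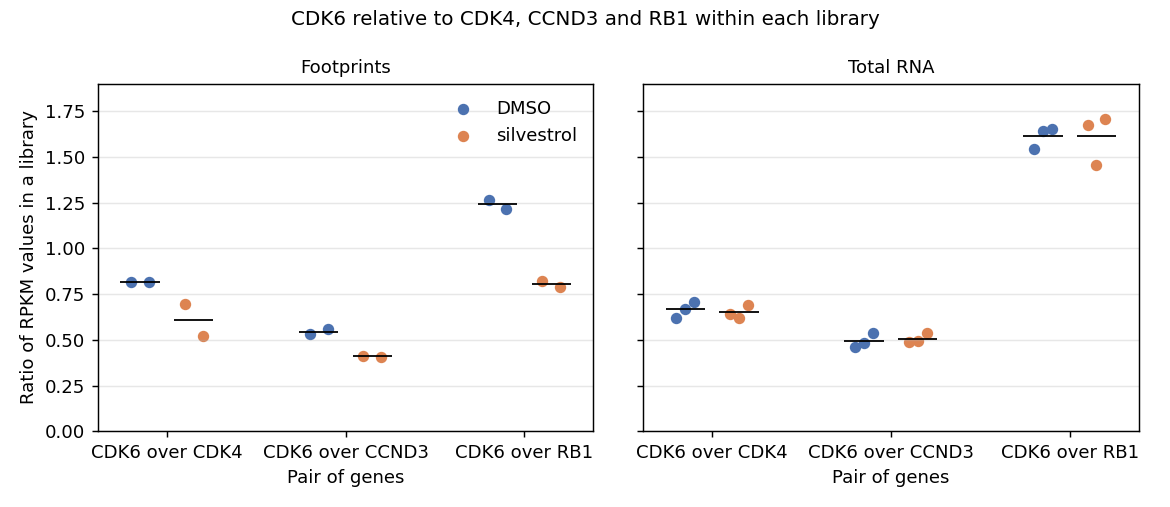
CDK6 RPKM divided by CDK4, CCND3 or RB1 RPKM in the same library, with footprints on the left and total RNA on the right, on an axis from 0. Points are libraries and black bars are means; in footprints the silvestrol points lie below the DMSO points for each pair, and in RNA the treatments overlap.

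The 417 tested genes with the triplet repeat in the leader gave a setting for CDK6. Their median log2 change was -0.13 in translational efficiency, -0.13 in footprints and 0.0051 in RNA, against -0.08, -0.07 and 0.0018 over all tested coding genes with a leader. Of them, 1 was called lower and 0 higher in translational efficiency, 0 in footprints, and 0 lower and 2 higher in RNA, where 0.107%, 0.0486% and 0.282% of all tested genes were called. Values below that of CDK6 were found in 12.7% of these genes for translational efficiency and in 9.83% for footprints, close to the 12.1% and 10.5% of all tested genes. No member besides CDK6 held the repeat, so within this set of genes the repeat and the gene cannot be told apart.

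CDK4, the partner kinase of CDK6, showed no such separation. Its RNA was 102 RPKM in each DMSO library and 103, 102 and 103 RPKM in silvestrol, at the 3 digits deposited. The log2 change of CDK4 RNA was 0.0093 with a 95% interval of -0.04 to 0.06. CDK4 footprints were 70.6 and 68.1 RPKM in DMSO and 53.8 and 78.8 RPKM in silvestrol, so that the silvestrol libraries lay on either side of DMSO. The footprint change was -0.09 (interval -0.57 to 0.39) with 0.18 left without silvestrol replicate 1 and -0.36 without silvestrol replicate 2, so no direction is given.

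CCND3, a cyclin partner of both kinases, had footprints of 109 and 100 RPKM in DMSO and 90.7 and 101 RPKM in silvestrol, which overlapped. Its footprint change was -0.12 on the log2 scale (interval -0.44 to 0.19) and its RNA change -0.05 (interval -0.12 to 0.01). Silvestrol RNA libraries of CCND3 read 136, 129 and 133 RPKM and overlapped with DMSO. The change of CCND3 in translational efficiency was -0.07 (interval -0.48 to 0.34), and it turned to 0.015 with TMM factors, so no direction is given.

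None of the inhibitors CDKN1B (p27), CDKN2C (p18) and CDKN2D (p19) was called, and the sign of their change in translational efficiency turned when 1 library was left out, so no direction is given for it. It ran from -0.052 to 0.11 for CDKN1B, from -0.072 to 0.34 for CDKN2C and from -0.21 to 0.039 for CDKN2D. CDKN1B footprints were 10.8 and 9.63 RPKM in DMSO and 10.6 and 11.2 RPKM in silvestrol, which overlapped, with a log2 change of 0.09 (interval -0.37 to 0.56) on an estimated 44.9 to 70.9 reads. CDKN2C footprints were 13.8 and 18.5 RPKM in DMSO and 17.1 and 18.2 RPKM in silvestrol, and both silvestrol values lay between the DMSO values; the footprint change was 0.14, and -0.067 without DMSO replicate 1. CDKN2D footprints were 30.5 and 25.6 RPKM in DMSO and 24.1 and 25.5 RPKM in silvestrol, separate by 0.1 RPKM. The CDKN2D footprint change was -0.17 (interval -0.56 to 0.22) and its RNA change -0.08 (interval -0.19 to 0.02). The G-run pattern was matched in 3 windows of its leader, and its change in translational efficiency was -0.08 (interval -0.74 to 0.57).

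RB1, the target of the cyclin D kinases, had footprints of 45.6 and 45.9 RPKM in DMSO and 45.8 and 52.0 RPKM in silvestrol. Its RNA was 41.1, 41.5 and 43.8 RPKM in DMSO and 39.6, 43.5 and 41.7 RPKM in silvestrol. Both overlapped between treatments. The footprint change was 0.09 on the log2 scale with a 95% interval of -0.23 to 0.42, so a fold below 0.850 lay outside the interval.

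E2F2 and E2F1 are activators of the S-phase programme, and neither was called. E2F2 RNA was 29.1, 29.5 and 29.9 RPKM in DMSO and 33.1, 31.3 and 32.0 RPKM in silvestrol, all 3 silvestrol libraries above all 3 DMSO libraries. It was the 1 member of 9 with higher, separate RNA groups, against 8.97% of all tested genes, and 0 of 9 had lower, separate RNA groups, against 3.99%. The log2 change of E2F2 RNA was 0.12 (interval 0.05 to 0.19, a fold of 1.09), with a limma p of 0.0025 before and 0.165 after adjustment. E2F2 footprints were 18.5 and 19.3 RPKM in DMSO and 11.6 and 16.8 RPKM in silvestrol, both silvestrol libraries below DMSO.

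The footprint change of E2F2 was -0.42 on the log2 scale (interval -0.96 to 0.12), and it was -0.16 without silvestrol replicate 1 and -0.68 without silvestrol replicate 2. In translational efficiency E2F2 had the lowest value of the members, -0.54 (interval -1.04 to -0.05), with a limma p of 0.033 before and 0.618 after adjustment, and it was -0.29 without silvestrol footprint replicate 1. The leader of E2F2 is 427 nt long with 73.8% GC and held neither pattern. E2F1 footprints were 15.2 and 22.6 RPKM in DMSO and 16.3 and 18.9 RPKM in silvestrol, and both silvestrol values lay within the DMSO range. E2F1 RNA was 65.4, 69.7 and 65.7 RPKM in DMSO and 70.9, 67.0 and 69.7 RPKM in silvestrol, with a change of 0.05 (interval -0.03 to 0.12).

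**Figure D4:**
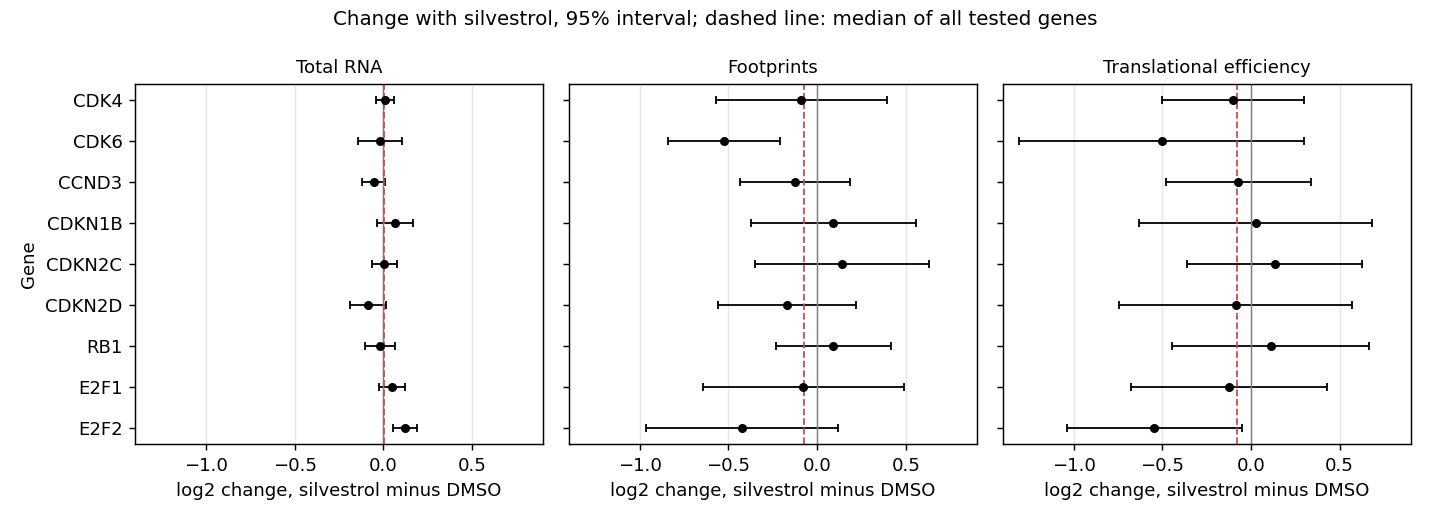
Log2 change of the 9 tested genes, silvestrol minus DMSO, in total RNA, footprints and translational efficiency (limma estimate, bars are 95% intervals). The solid line is 0 and the dashed line the median of all tested genes; RNA intervals are narrow and close to 0, and the lowest values in footprints and translational efficiency belong to CDK6 and E2F2.

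The rest of the G1/S machinery was read from a list of 30 genes, 26 of them tested, and 0 were called in any comparison with limma. At an unadjusted p under 0.05 there were 2 genes each in translational efficiency, footprints and RNA, near the 7.38%, 6.98% and 9.23% of all tested genes. They are named here after their values were seen. E2F7, a repressor of E2F targets, had footprints of 5.44 and 5.60 RPKM in DMSO and of 7.56 and 9.81 RPKM in silvestrol, a change in translational efficiency of 0.66 (SE 0.27, limma adjusted p = 0.615). CDKN3, a phosphatase of CDK2, had footprint means of 51.3 ± 4.7 RPKM (SD, n = 2) in DMSO and 66.3 ± 1.3 in silvestrol, a change of 0.44 in translational efficiency (limma adjusted p = 0.579) and of -0.07 in RNA. The second RNA gene was CDK1, the mitotic kinase, at -0.11 (limma adjusted p = 0.344). With 1 spread for both assays, the list had 0 lower and 2 higher genes in translational efficiency, where 5.29% of all tested genes were called in either direction.

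Among inhibitors outside the members, CDKN1A (p21) had a DMSO RNA mean of 2.10 RPKM and CDKN2A 7.26 RPKM, with DMSO footprint means of 1.28 and 2.99 RPKM, and neither was called. CDKN2A shares its locus with an antisense gene and no source used here states the use of strand, so its reads cannot be assigned with certainty. CCNE1 and CDK2, the cyclin and kinase that act after CDK4 and CDK6, were named after their values were seen. CCNE1 footprints averaged 6.28 RPKM in DMSO and 4.31 RPKM in silvestrol, and CDK2 footprints 27.3 and 19.6 RPKM, with footprint changes of -0.52 and -0.50 (limma adjusted p = 0.741 and 0.735). Footprint changes of the 26 tested genes of the G1/S list ran from -0.52 to 0.60. Their median was -0.05, against -0.07 over all tested genes.

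Genes known as E2F targets, which make the replication machinery, gave the downstream level of the switch. Of 25 listed, 24 were matched and tested, and 0 were called in any comparison. Their median log2 change was -0.08 in translational efficiency, -0.06 in footprints and 0.01 in RNA, against -0.08, -0.07 and 0.0028 over all tested genes. At an unadjusted p under 0.05 there were 0 in translational efficiency, 0 in footprints and 1 in RNA. Of all tested genes, 7.38%, 6.98% and 9.23% stood there. With 1 spread for both assays, 1 gene was called lower in translational efficiency, against 3.99% of all tested genes. Log2 changes of their RNA ran from -0.08 to 0.06.

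The tested genes whose pattern over the 10 libraries was nearest to CDK6, by Euclidean distance of log2 values centred within each assay, were MPRIP (distance 0.14), ARRB1 (0.16) and ANKH (0.16), where the median gene was at 0.68. Their footprint changes were -0.51, -0.48 and -0.53, near that of CDK6 because they were chosen by likeness to it in these libraries. Their DMSO footprint means were 3.16, 3.345 and 2.79 RPKM, against 56.7 RPKM for CDK6. Nearest to CCND3 were CYB5R3, TCF7 and GET3 (0.05, 0.07 and 0.08, median 0.49), and nearest to E2F1 were KLHDC4, ARMC10 and MAML1 (0.11, 0.11 and 0.13, median 0.66).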

How the data were processed

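Each library came as its own table of RPKM, computed and deposited by the authors for 55889 Ensembl genes. Per the submitters' processing notes the work involved STAR and hg19, without a stated role or version. For the counting tool, annotation release, gene lengths and strand: not given in the sources used here. Symbols came from a gene name table (49395 IDs) and GENCODE release 29 (267 more). GENCODE release 29 is on GRCh38 and served only for names, lengths, transcript sequences and the coordinates of the printed windows. Its transcript per gene was the best APPRIS-ranked coding one, then a CCDS one, then the one with the longest coding sequence.

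Values were taken as log2(RPKM + 0.5), on which low genes appear to change less than they do, and tested with limma 3.58.1 in R 4.3.3 (eBayes with trend and robust, two-sided). Translational efficiency was the interaction of assay and treatment over 10 libraries with weights per assay. Footprints used 4 libraries and RNA 6. Between 90.7% and 93.1% of low values lay within 0.05 of a whole estimated read, so depths are estimates. Estimated RNA reads of all genes added up to between 118.3% and 119.8% of the estimated totals, so the totals are rough and no interval is given from them. TMM factors for 1 alternative were computed on the RPKM values. The tests were checked on simulated data, with a spread beyond counting that was alike for all genes of an assay. A 1.5-fold change was recovered in 13.6% of changed genes in translational efficiency, 1.43% in footprints and 98.4% in RNA. For a 2-fold change the shares were 53.4%, 45.6% and 98.7%. With nothing changed, 11, 8 and 5 of 10052 genes were called, in the same order. The data themselves gave 11, 5 and 29 calls among 10297 genes. Calls in translational efficiency and footprints were thus no more numerous than in that simulation. Given the recovered shares, a missing call does not by itself exclude a 1.5-fold or 2-fold change of a member in translational efficiency or footprints.

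The members, lists and tests were chosen with earlier results of these data known. Named by rule were the 10 members, called list genes, CCND1, CDKN1A and CDKN2A, and the 3 genes nearest to CDK6, CCND3 and E2F1.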

Additional observations from a re-analysis of the deposited data

How the results depend on the processing

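Of 387 values of the members under alternatives, 362 kept direction and side of the threshold, 24 changed sign and 1, CDK6 in translational efficiency, became called. CDK6, E2F2 and RB1 kept their sign in both translational efficiency and footprints under every alternative run, CDK6 and E2F2 negative and RB1 positive. With 1 spread for both assays, 545 genes and 1 member were called in translational efficiency, against 11 and 0. Without a filter on low values, 271 genes were called in translational efficiency, 280 in footprints and 0 in RNA. Footprint calls, 5 as reported, were 2 with a pseudocount of 0.1, 2 with a minimum of 5 RPKM and 8 with TMM factors. With the replicate block, 14 genes were called in translational efficiency, 1 in footprints and 57 in RNA (29 as reported), and no member. The numbers were not taken to pair libraries, since deviations of same-numbered RNA libraries correlated at 0.04, -0.33 and 0.15 and of footprint libraries at -0.03, and not every RNA library correlated best with its own number. Leaving out 1 library gave 8 to 44 calls in translational efficiency, 0 in footprints and 0 to 35 in RNA, and no member; a group left with 1 library is assumed to vary like the others. RNA calls were 0 without DMSO replicate 1, 0 without DMSO replicate 3, 5 without DMSO replicate 2 and 1 without silvestrol replicate 3; translational efficiency calls were 21 without DMSO footprint replicate 1, 44 without silvestrol footprint replicate 1 and 31 without silvestrol footprint replicate 2. With footprints rescaled by coding length, the ratios in DMSO became 10.5 for CDK6, 2.37 for CDK4, 5.03 for CCND3, 7.34 for CDKN1B, 5.54 for CDKN2C, 2.59 for CDKN2D, 2.52 for RB1, 0.539 for E2F1 and 2.67 for E2F2. The limit on exon length given above holds for these ratios. Sign changes were all in uncalled values. With TMM factors, translational efficiency was 0.015 for CCND3 and 0.00061 for CDKN2D, footprints 0.0011 for E2F1, and RNA -0.0013 for CDKN2C. With median scaling, RNA was -0.0038 for CDK4 and -0.0082 for CDKN2C. Leaving out 1 library, translational efficiency ran from -0.37 to 0.17 for CDK4, -0.15 to 0.0057 for CCND3, -0.052 to 0.11 for CDKN1B, -0.072 to 0.34 for CDKN2C, -0.21 to 0.039 for CDKN2D and -0.40 to 0.15 for E2F1. Footprints then ran from -0.36 to 0.18 for CDK4, -0.067 to 0.34 for CDKN2C and -0.36 to 0.20 for E2F1, and RNA from -0.070 to 0.025 for CDK6, -0.014 to 0.022 for CDKN2C and -0.051 to 0.016 for RB1. The causes of these moves were not tested, beyond the fewer libraries or other genes each alternative uses. CCND2, at an estimated 2.0 to 3.0 footprint reads, was too shallow for any of these comparisons.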
